A study of Mus musculus with 12 samples.

Results

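The genes described here are S100a1, S100a4, S100a6, S100a10, S100a11, S100a13 and S100a16, which encode small calcium-binding proteins of the S100 family. They are 7 of the 14907 genes listed in the deposited tables. They were taken by gene name and chosen by their normalized read counts in these libraries, where S100a6 is the top gene of several. Levels are therefore given as a description. All 7 had values in all 12 libraries and passed the filter on low values, which asked that some group average 10 or more.

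The study measured the 3′ ends of messenger RNAs in primary mesenchymal cells, which form the connective tissue beneath the gut lining, grown from the small intestine of C57/Bl6 mice. There were 4 groups of 3 libraries: MyD88ko with LPS, MyD88ko untreated, wt with LPS and wt untreated. All cells were cultured to passage 3, sorted for GFP and kept overnight without serum; those of the LPS groups were then exposed to E. coli LPS at 2 µg/ml for 6 hours. LPS is a lipid of the outer membrane of Gram-negative bacteria that is sensed by the receptor TLR4, and MyD88 is one of the adaptors through which that receptor signals. The MyD88ko genotype was ColVIcre-MyD88F/F-RosamTmG, in which Cre driven by collagen VI sequences acts on floxed Myd88 alleles and on a fluorescent reporter in the cells where it is active. The wt cells carry the genotype label MyD88F/F-RosamTmG, without Cre, while the design text calls them Cre-positive. If the label is right, loss of MyD88 and presence of Cre cannot be told apart. The age and sex of the mice are not given in the sources used here, nor is whether replicates came from separate animals, so p-values measure the spread between these libraries.

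S100 proteins carry a pair of EF-hand loops, usually work as dimers, and on binding calcium expose a surface that grips a target protein. S100A10 is the exception of the family: its loops no longer bind calcium, and it is held in an active form as the partner of annexin A2. In connective tissue the family is best known through S100A4, also called fibroblast-specific protein, which binds non-muscle myosin II, and through S100A6, or calcyclin, first described in growing cells. Some members are also released from cells and act on receptors such as RAGE.

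All 7 genes lie on mouse chromosome 3, in 2 groups (build mm10). The first group holds 5 of them in 113 kb: S100a1 at chr3:90511034-90514392 on the minus strand and, on the plus strand, S100a13 at chr3:90514435-90524581, S100a16 at chr3:90537254-90543151, S100a4 at chr3:90603771-90606045 and S100a6 at chr3:90612882-90624181. The second holds S100a11 at chr3:93520488-93526287 and S100a10 at chr3:93555080-93564643, both on the plus strand, and starts 2.9 Mb further on. S100a1 and S100a13 lie back to back with 42 bases between them. The annotated range of S100a4 overlaps Gm42674 at chr3:90601904-90605885, whose value exceeded that of S100a4 by 1 to 61 in each library. The same reads can count to both names, so the value given for S100a4 may not be of that gene alone. Where in the overlap the reads lay was not examined.

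The start regions of 5 members are shown because these genes bear on how members moved together: S100a6 and S100a4 as neighbours whose values varied together among replicates, S100a11 as a gene of the second group, and S100a1 with S100a13 as a pair that shares its start region. The sequences are RefSeq's on GRCm38.p6, from 250 bases before to 50 bases after the annotated start. They are written 5′ to 3′ on the gene's own strand, with matched motifs in capitals, and the shared stretch of S100a1 and S100a13 on the plus strand.
S100a6, chr3:90612644-90612943, plus strand: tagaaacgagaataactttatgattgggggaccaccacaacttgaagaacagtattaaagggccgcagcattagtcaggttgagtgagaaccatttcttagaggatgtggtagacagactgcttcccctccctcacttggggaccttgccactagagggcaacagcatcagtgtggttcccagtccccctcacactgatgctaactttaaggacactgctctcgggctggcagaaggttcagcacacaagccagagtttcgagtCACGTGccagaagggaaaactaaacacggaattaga
S100a4, chr3:90603520-90603819, plus strand: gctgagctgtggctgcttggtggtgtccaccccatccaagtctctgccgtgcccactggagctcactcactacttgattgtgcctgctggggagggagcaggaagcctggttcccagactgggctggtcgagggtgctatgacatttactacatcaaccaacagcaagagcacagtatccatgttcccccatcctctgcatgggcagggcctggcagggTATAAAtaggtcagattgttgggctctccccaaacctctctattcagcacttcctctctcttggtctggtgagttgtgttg
S100a11, chr3:93520246-93520545, plus strand: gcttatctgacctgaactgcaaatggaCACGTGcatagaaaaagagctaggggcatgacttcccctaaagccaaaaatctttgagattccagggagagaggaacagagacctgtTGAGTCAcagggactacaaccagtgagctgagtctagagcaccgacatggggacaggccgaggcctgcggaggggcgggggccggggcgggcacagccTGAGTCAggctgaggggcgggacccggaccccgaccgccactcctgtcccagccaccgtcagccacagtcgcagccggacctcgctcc
S100a1 and S100a13, chr3:90514281-90514484, plus strand: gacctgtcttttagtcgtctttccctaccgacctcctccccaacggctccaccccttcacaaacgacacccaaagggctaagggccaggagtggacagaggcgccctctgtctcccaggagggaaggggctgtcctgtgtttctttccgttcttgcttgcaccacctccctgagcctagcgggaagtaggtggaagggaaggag

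Entries were found for 6 of the 7 members. Each was searched on both strands for a TATA box, spelled TATAAA, for an E-box, spelled CACGTG, for an AP-1 site, spelled TGAGTCA, for the core of the antioxidant response element, spelled TGACNNNGC, and for an NF-kB-type site; none of these strings contains another. In S100a4, TATAAA ran from position -31 to -26 relative to the start, and 13.6% of the 32851 promoters in the table hold it. In S100a6, CACGTG ran from position 14 to 19, and in S100a11 from -223 to -218; 7.15% of promoters hold it. The window of S100a11 also held TGAGTCA at -136 to -130 and at -38 to -32, a motif in 5.2% of promoters. In S100a16 a window at chr3:90537004-90537303 matched the antioxidant core on the opposite strand at -26 to -18, which 12.4% of promoters do. The windows of S100a1 and S100a13 held none of the 5 motifs, and the NF-kB-type site, found in 0.155% of promoters, was in none of the member windows. A match is a string of letters and not evidence of binding.

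The values are read counts per gene that the authors normalized across libraries and rounded. Their totals ran from 3599944 to 4320551 per library, and the depth estimated from the steps among low values ran from 2.5 to 5.31 megareads. Myd88 was listed at 24, 22 and 5 in MyD88ko LPS libraries, 14, 8 and 10 in MyD88ko untreated, 171, 204 and 213 in wt LPS and 99, 98 and 103 in wt untreated, so every library went with its genotype label. All 10 mesenchymal markers were listed, and their values summed to 131110 to 141702 in MyD88ko LPS, 88947 to 111227 in MyD88ko untreated, 70515 to 116901 in wt LPS and 43583 to 101141 in wt untreated libraries. The sums weigh abundant genes such as Col1a1 most. Pdgfra was lower in MyD88ko than in wt cells, 3.58-fold untreated and 3.41-fold with LPS (limma, adjusted p = 0.00162 and 0.00222). Pdgfrb was 2.14-fold lower with LPS in wt cells (limma, adjusted p = 0.000867). Over all genes tested, 1.88%, 1.49% and 19.2% were called in those comparisons. No other mesenchymal marker was called in any. Epithelial markers, 6 of 9 of which were listed, summed to 4 to 22 in MyD88ko LPS, 8 to 11 in MyD88ko untreated, 23 to 28 in wt LPS and 13 to 983 in wt untreated. Wt untreated replicates 1 and 3 held the high sums, with Cldn4 at 213 and 122 and Krt19 at 166 and 62, against 7 and 0 in replicate 2; Cdh1 reached 719 in replicate 3. MyD88ko LPS replicate 3 also stood apart, differing from replicates 1 and 2 of its group by a chi-square per degree of freedom of 46.1 and 26.2, against 10.5 to 23.9 for all other pairs. No S100 gene gained or lost a call without it. Leukocyte markers, 5 of 8 listed, summed to 21 to 60 in any library, and Ptprc was not listed. Endothelial markers, 2 of 6 listed, summed to 1 to 10 in the 9 libraries outside wt LPS, where neither was listed, and glial markers, 3 of 5 listed, to 7 to 69. Hepatocyte markers, 4 of 6 listed, moved with treatment, summing to 4 to 19 in MyD88ko LPS, 114 to 170 in MyD88ko untreated, 6 to 13 in wt LPS and 104 to 258 in wt untreated libraries; their part in the S100 differences was not tested. Untreated and LPS libraries come from separate runs of library codes, and an effect of that split cannot be told apart from LPS. In bulk RNA, fewer cells of a type and less RNA per cell cannot be told apart either.

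S100a6 was among the most abundant messenger RNAs of these cells. It had values of 95497, 70952 and 45839 in MyD88ko LPS libraries, 66157, 48129 and 52079 in MyD88ko untreated, 87952, 48083 and 118219 in wt LPS, and 43855, 29323 and 56420 in wt untreated. It was the gene with the highest or second-highest value in 11 of the 12 libraries, and ranked 5 in wt untreated replicate 2. It took 1.14% to 2.23% of the normalized total in MyD88ko LPS libraries, 1.16% to 1.58% in MyD88ko untreated, 1.34% to 2.99% in wt LPS and 0.755% to 1.46% in wt untreated. Within the 7 genes it made up 85% to 92.2% of the sum, so the summed level of the set is in effect that of S100a6.

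**Figure D1:**
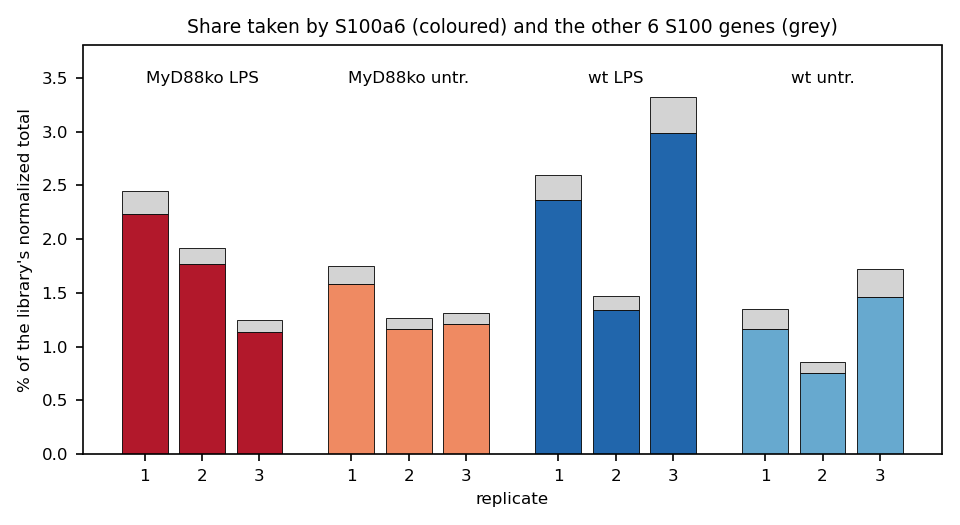
Share of the normalized total (vertical axis, percent) taken by S100a6 (coloured) and by the other 6 S100 genes (grey) in each library (horizontal axis, replicate number within the 4 groups). The 7 genes together took between 0.859% in wt untreated replicate 2 and 3.32% in wt LPS replicate 3.

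The other members followed far below. Averaged over the 12 libraries, the normalized count was 63542 for S100a6, 3795 for S100a4, 1512 for S100a11, 755 for S100a10, 448 for S100a16, 391 for S100a13 and 131 for S100a1. S100a6 thus stood 16.7-fold over S100a4 and 486-fold over S100a1. Per base of gene model, as the authors divided it, the mean levels were 14.7 for S100a6, 2.59 for S100a4, 1.08 for S100a11, 0.292 for S100a13, 0.275 for S100a10, 0.227 for S100a16 and 0.0842 for S100a1. Since 3′ reads do not scale with gene length, the order of both scales is given; it differed only in that S100a13 moved above S100a10 and S100a16. In the order of counts, the ranges over libraries of members next to each other overlapped from S100a4 down to S100a13. In MyD88ko LPS replicate 3, S100a11 at 1364 was above S100a4 at 1360. S100a1 was below every other member in every library. Even S100a1 stood above 67% of the genes listed in all 12 libraries by mean.

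**Figure D2:**
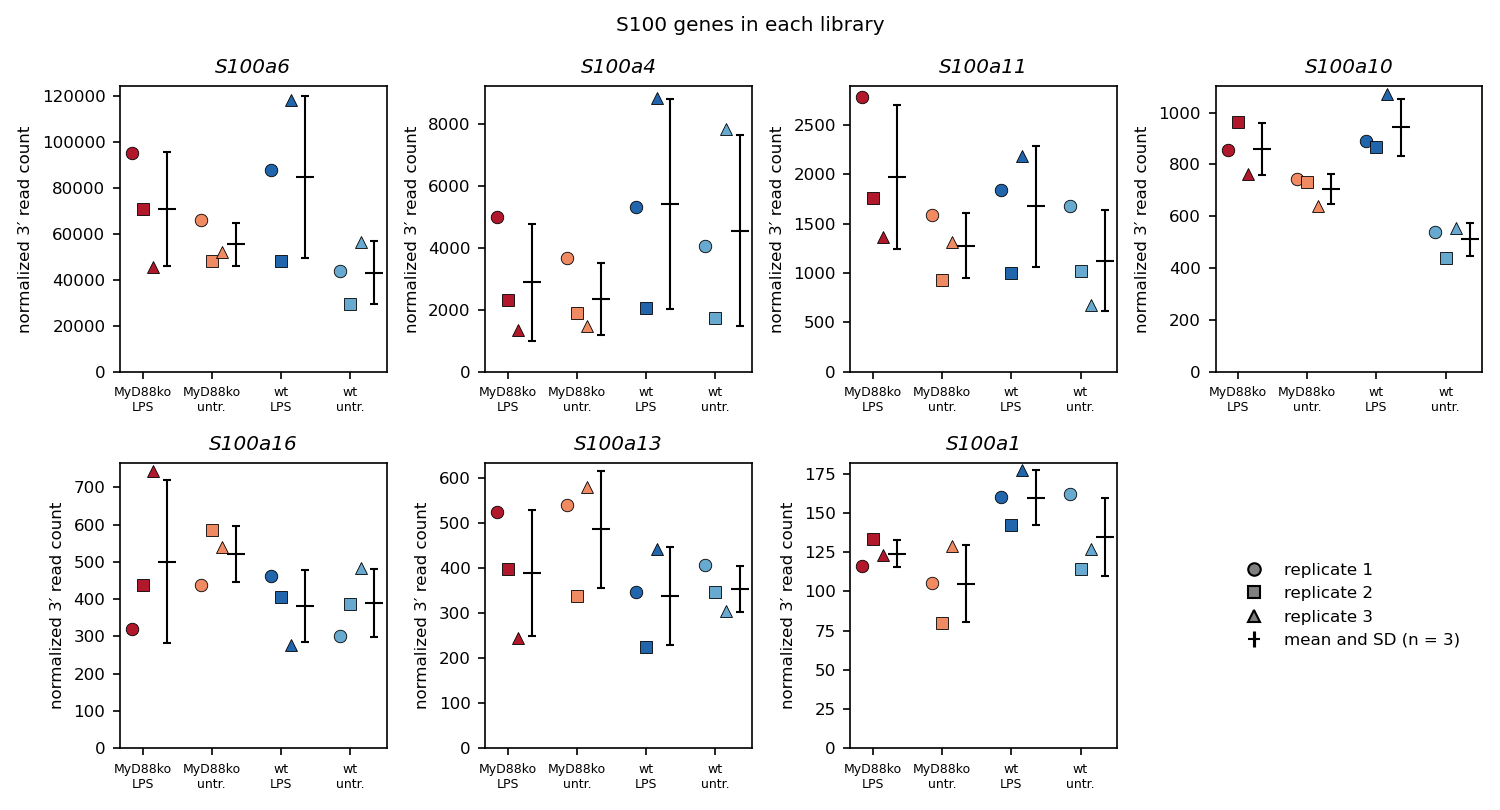
Normalized 3′ read count (vertical axis, from 0, scaled for each gene) of the 7 S100 genes in the 4 groups (horizontal axis). Symbols are replicates 1, 2 and 3, and the bar beside them is the mean with its SD (n = 3). S100a10 replicates lie close together with wt untreated lowest, while S100a4 replicates differ by more than 2-fold in every group.

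With LPS, wt cells had 1.9 times the S100a6 and 1.85 times the S100a10 of untreated wt cells, and these were the 2 of 7 members called in that comparison, both higher. A gene was called where limma's p, adjusted by Benjamini-Hochberg over the 12385 genes tested, was under 0.05. In the same comparison 19.2% of all genes tested were called, 9.55% higher and 9.66% lower. The median log2 difference was 0.269 over the 7 members and 0.013 over all genes tested, and 5 of the 7 were above 0, as were 50.7% of all genes.

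S100a10, the annexin A2 partner, gave the clearest difference. Its values were 890, 869 and 1071 in wt LPS libraries against 538, 438 and 556 in wt untreated libraries, which do not overlap. The means were 943 ± 111.1 in wt LPS and 511 ± 63.6 in wt untreated (SD, n = 3 each). The log2 difference was 0.89 ± 0.19 (SE), or 1.85-fold, with an adjusted p of 0.00281 by limma. It stayed called without any single library, with limma's adjusted p between 0.00144 and 0.0189.

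S100a6 averaged 84751 ± 35177 in wt LPS and 43199 ± 13560 in wt untreated libraries (SD, n = 3 each). Wt LPS replicate 2, at 48083, lay below wt untreated replicate 3, at 56420, so the groups overlapped. The log2 difference was 0.93 ± 0.32 (SE), or 1.9-fold, and limma's adjusted p of 0.0496 was just under the threshold. With quantile normalization the log2 difference was 0.36 and the call was lost (limma, adjusted p = 0.332). That scaling gives equal ranks equal values, and S100a6 ranked 1 or 2 in 11 of the 12 libraries. It therefore largely fixes the outcome for S100a6 and cannot weigh its difference. The call was also lost under 4 further settings of the scaling, filter or fit, at adjusted p from 0.0516 to 0.125 by limma. It was lost as well on leaving out any of 8 libraries, with limma's adjusted p at 0.063 without MyD88ko LPS replicate 2, 0.0572, 0.062 and 0.0652 without MyD88ko untreated replicates 1, 2 and 3, 0.15 and 0.218 without wt LPS replicates 1 and 3, and 0.0959 and 0.18 without wt untreated replicates 1 and 2. Without both wt untreated libraries that held epithelial transcripts, only replicate 2 was left in that group. The log2 differences of S100a6 and S100a10 were then 1.44 and 1.10.

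None of the other 5 members passed the test in wt cells. S100a11, a partner of annexin A1, had 1841, 999 and 2184 in wt LPS against 1681, 1023 and 674 in wt untreated libraries. The log2 difference was 0.60 ± 0.35 (SE; limma, adjusted p = 0.262). S100a4 had 5317, 2052 and 8825 in wt LPS against 4068, 1728 and 7831 in wt untreated libraries, and its difference of 0.27 ± 0.71 (SE) lay well within the spread of replicates. S100a1, known for calcium handling in heart and skeletal muscle, had 160, 142 and 177 in wt LPS against 162, 114 and 127 in wt untreated libraries. S100a13, which takes part in the release of FGF1 and interleukin 1 alpha from stressed cells, had 346, 224 and 442 in wt LPS against 406, 346 and 305 in wt untreated libraries. S100a16, a widely expressed member, had 463, 405 and 276 against 301, 387 and 483. The log2 differences of these 3 genes were 0.26, -0.11 and -0.04, with limma's adjusted p at 0.501, 0.834 and 0.939.

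In MyD88ko cells none of the 7 was called with LPS, where 5.98% of all genes tested were called, 2.58% higher and 3.40% lower. S100a10 had 855, 964 and 764 in MyD88ko LPS libraries against 742, 734 and 640 in MyD88ko untreated, which do not overlap, with a log2 difference of 0.28 ± 0.19 (SE; limma, adjusted p = 0.42). S100a6 overlapped between the groups and differed by 0.30 ± 0.32 (SE; limma, adjusted p = 0.638). S100a11 had 2784, 1764 and 1364 in MyD88ko LPS against 1591, 932 and 1309 in MyD88ko untreated libraries. Its log2 difference of 0.60 ± 0.35 (SE) was the same as in wt to 2 decimals, and limma's adjusted p was 0.355. S100a1 differed by 0.27 and S100a4 by 0.20, while S100a16 was at -0.14 and S100a13 at -0.35, with limma's adjusted p between 0.534 and 0.91. The median log2 difference of the members was 0.267, beside 0.004 over all genes tested; at an unadjusted p under 0.05 limma gave 0 members and 2600 genes. Without MyD88ko LPS replicate 3 the log2 differences of S100a6, S100a11 and S100a4 were 0.58, 0.83 and 0.64, and those of S100a13 and S100a16 were -0.05 and -0.47, none of them called.

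Whether the LPS response differed between genotypes was tested as the difference of both log2 differences, MyD88ko minus wt. None of the 7 was called, in a test that called 0.0161% of all genes. For S100a10 that difference was -0.60 ± 0.27 (SE), with a 95% interval from -1.16 to -0.04 and an unadjusted p of 0.0375, which became 0.513 after limma's values were adjusted. For S100a6 it was -0.63 ± 0.45 (SE), with a 95% interval from -1.58 to 0.32 and an adjusted p of 0.696 by limma. For S100a11 it was -0.00 with an interval from -1.05 to 1.05. A call of S100a6 and S100a10 in wt cells alone therefore does not show that their responses differ between genotypes. In this fit, which has no block for replicates, the interval of S100a6 takes in both no difference and a large one.

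**Figure D3:**
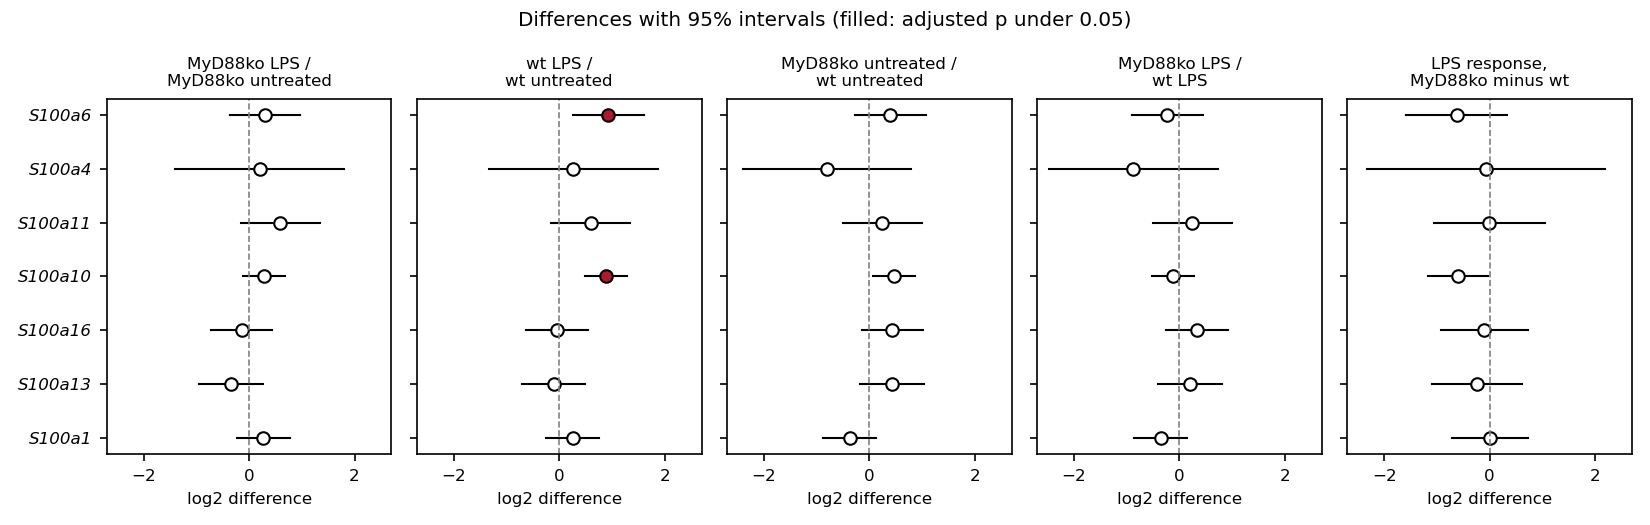
Log2 difference (horizontal axis) of each S100 gene (vertical axis) in the 5 comparisons, as points with 95% intervals from the fit of all 12 libraries. Filled points have an adjusted p under 0.05, which only S100a6 and S100a10 in wt LPS against wt untreated had; the intervals of S100a4 are the widest.

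Between genotypes, none of the 7 was called without LPS, where 1.88% of all genes tested were called, or with LPS, where 1.49% were. The comparisons share libraries with those of LPS. Without LPS, S100a10 had 742, 734 and 640 in MyD88ko libraries against 538, 438 and 556 in wt libraries, which do not overlap. That is a log2 difference of 0.47 ± 0.19 (SE), with an unadjusted p of 0.0231 and an adjusted p of 0.229 by limma. With LPS, S100a10 had 855, 964 and 764 in MyD88ko libraries against 890, 869 and 1071 in wt libraries, which overlap, at a log2 difference of -0.13. Wt untreated libraries thus held the lowest S100a10 values of the 4 groups. In the untreated cells 1 member and 1923 genes had an unadjusted p under 0.05, and in the LPS-treated cells 0 members and 1486 genes did.

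S100a4, the fibroblast-specific protein, averaged less in MyD88ko than in wt libraries in both conditions, but its replicates overlapped. It averaged 2888 ± 1887 in MyD88ko LPS against 5398 ± 3387 in wt LPS, and 2350 ± 1158 in MyD88ko untreated against 4542 ± 3079 in wt untreated (SD, n = 3 each). The log2 differences were -0.87 ± 0.71 (SE) with LPS and -0.80 ± 0.71 without, and limma's adjusted p was 0.707 and 0.663. Without wt untreated replicates 1 and 3, which left only replicate 2 in that group, the untreated difference was 0.33. Replicate 2 held the lowest S100a4 of the wt untreated libraries, at 1728. Leaving out single libraries gave -1.37 to -0.28. In the authors' deposited table, S100a4 had a ratio of 0.518 between MyD88ko and wt untreated cells, with a p-value of 0.0467 and an adjusted value of 0.825. S100a1 was also lower on average in MyD88ko cells, with 116, 133 and 123 in MyD88ko LPS against 160, 142 and 177 in wt LPS libraries, which do not overlap. Its log2 difference was -0.36 with limma's adjusted p at 0.598, and -0.37 without LPS with 0.506. S100a16 had log2 differences of 0.33 with LPS and 0.43 without, and S100a13 of 0.19 and 0.43, with limma's adjusted p between 0.493 and 0.86.

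The authors' own test made no call among these genes: in the authors' deposited table no member had an adjusted value under 0.05 in any of the 4 comparisons. For wt LPS against wt untreated, that table gave S100a10 a ratio of 1.85 with an adjusted value of 0.281, and S100a6 a ratio of 1.96 with 0.655.

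Members differed in how much they varied among replicates of a group. The SD of log2 values within groups was 0.959 for S100a4, larger than in 99.6% of the 5538 genes with a mean of at least 100, whose median SD was 0.297. It was 0.550 for S100a11, 0.501 for S100a6, 0.439 for S100a13 and 0.414 for S100a16. S100a1 had 0.234, and S100a10 had 0.161, below which only 5.67% of those genes fell. S100a10 and S100a6 thus had differences of like size between wt groups and unlike spreads.

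S100a4 and S100a6, next to each other on the chromosome, varied together from replicate to replicate. After subtracting group means, Pearson's r of log2 values between them was 0.966 over the 12 libraries, against 0.687 with the group means left in (Spearman's rho 0.678). Without MyD88ko LPS replicate 3 the value about group means was 0.964, and without wt untreated replicates 1 and 3 it was 0.962. Replicate 1 of both MyD88ko groups and replicate 3 of both wt groups were highest in both genes, and wt replicate 2 was lowest in both genes with and without LPS. S100a11 and S100a13 had an r of 0.875 about group means, and 0.555 with the means left in. S100a16 ran the other way from every other member, with r about group means from -0.796 with S100a13 and -0.780 with S100a11 to -0.287 with S100a1. S100a1 and S100a13, whose start regions share 204 bases, had an r of 0.579 about group means and -0.031 with the means left in. These are descriptions over 12 libraries that share normalization and groups. Since the same replicate numbers were highest with and without LPS in S100a4 and S100a6, the 12 libraries may not be independent points. Leaving out libraries does not address that.

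**Figure D4:**
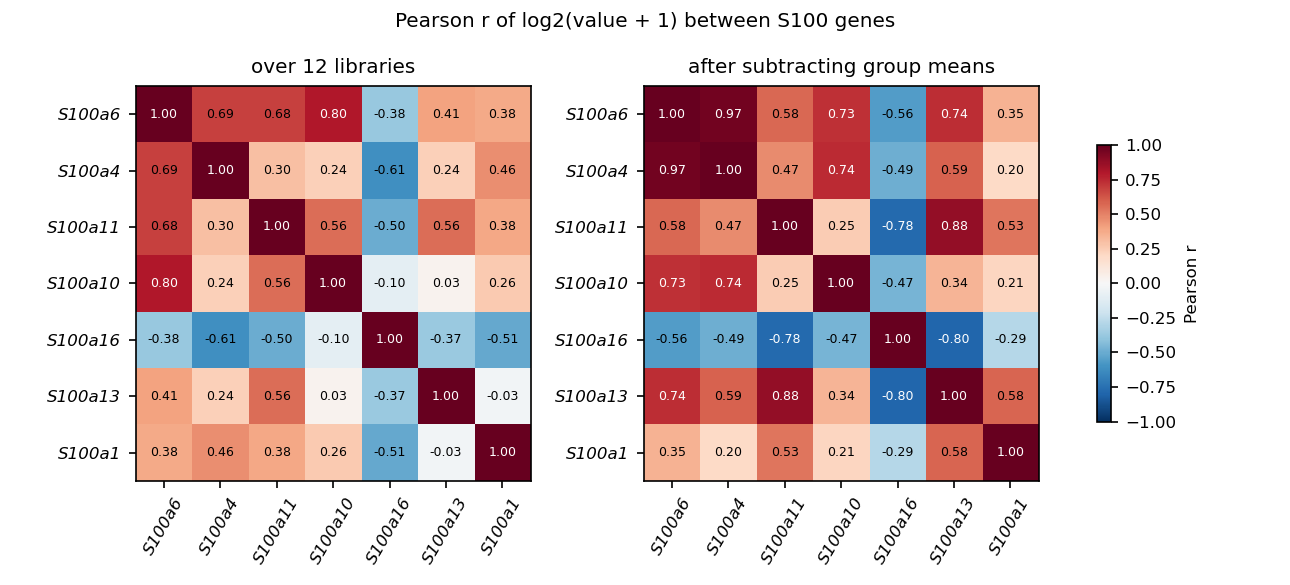
Pearson r of log2(value + 1) between the S100 genes over 12 libraries (left) and after subtracting each group's mean (right), on a colour scale from -1 to 1. S100a4 and S100a6 reach 0.97 on the right, and the row of S100a16 is negative throughout.

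Most mesenchymal markers ran against S100a4 and S100a6 among replicates of a group. About group means, S100a4 had a negative r with 9 of the 10 mesenchymal markers, at a median of -0.710, while 50.1% of 7743 genes with a mean of at least 50 had a negative r with it. S100a6 was likewise negative with 9 of 10, at a median of -0.691, beside 49.9% of those genes. The most negative marker for both was Col1a2, a chain of collagen I, at -0.931 with S100a4 and -0.938 with S100a6; Vim, which encodes the filament protein vimentin, was the positive exception at 0.422 and 0.546. Col1a2 had 20695, 29133 and 37947 in MyD88ko LPS libraries, where S100a4 had 4998, 2307 and 1360. It had 15840, 25559 and 14933 in wt LPS and 10255, 19587 and 9967 in wt untreated libraries, lowest each time in replicate 3, where S100a4 was highest. The pattern did not hold marker by marker in every group: Col1a1, the other chain of collagen I, had 83203, 76251 and 72836 in MyD88ko LPS libraries, highest in replicate 1 along with S100a4 and S100a6. Nor was it limited to that pair: 9 of the 10 markers had a negative r with S100a1, 9 with S100a11, 8 with S100a13 and 7 with S100a10, at medians of -0.432, -0.414, -0.380 and -0.382. Of the 7743 genes 50.4%, 52.3%, 51.4% and 50% were negative with them. For S100a16 4 of the 10 were negative, with a median of 0.160, beside 48.5% of those genes. With the group means left in, the medians were -0.316 for S100a1, 0.058 for S100a11, -0.140 for S100a13 and 0.327 for S100a10. In the same order 7, 4, 7 and 2 of the 10 were negative. For S100a4 and S100a6 the medians were then -0.407 and -0.112, with 9 and 7 negative. These correlations were looked at after the values of S100a4 were seen, carry no test, and the part of differing cell makeup or library quality in them was not tested.

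Over all 12 libraries, the 2 protein-coding genes with the pattern most like each member were taken among 7373 genes with a mean of at least 50. For S100a10 they were Ehd2 (r = 0.946) and Banf1 (0.943), for S100a6 Arl6ip1 (0.930) and Mapre1 (0.900), and for S100a11 Mea1 (0.965) and Furin (0.934). For S100a4 they were its overlapping neighbour Gm42674, at an r that rounds to 1, and Slfn5 (0.922). For S100a13 they were Gmppb (0.890) and Tubb6 (0.870), for S100a16 Sft2d2 (0.925) and Polr1c (0.912), and for S100a1 Lipa (0.886) and Mta3 (0.882). No member was among the genes most like another.

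The rest of the S100 family was nearly silent. Of 11 further family members 6 were listed and 2, S100a8 and S100g, passed the filter; none was called in any comparison. S100a8, a calcium-binding protein of neutrophils and monocytes, had 0, 4 and 0 in MyD88ko LPS, 0 in each MyD88ko untreated library, 19, 9 and 9 in wt LPS and 17, 2 and 5 in wt untreated. S100g, the calbindin of the gut epithelium, had at most 3 in any MyD88ko library, against 3 to 9 in wt LPS and 5 to 17 in wt untreated libraries. S100a14, known from epithelia, had 36 and 10 in wt untreated replicates 1 and 3, those with the epithelial transcripts, and 0 in the other libraries where it was listed. S100b, best known from glia, stayed between 2 and 10. Of 7 fused-type genes, large relatives of the skin barrier, only Tchh was listed and none was tested.

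Among 20 genes whose proteins bind S100 proteins in the cell, 17 were tested. With LPS, 2 rose and 1 fell in MyD88ko cells, where 5.98% of all genes tested were called, and 3 rose and 3 fell in wt cells, where 19.2% were. Anxa6, a membrane-binding annexin reported to bind several S100 proteins, had 3068, 1885 and 2957 in wt LPS against 1403, 1131 and 1140 in wt untreated libraries, 2.11-fold higher (limma, adjusted p = 0.00128). In MyD88ko cells it had 3197, 2369 and 2727 with LPS against 1727, 1555 and 1561 untreated, 1.7-fold higher (limma, adjusted p = 0.0347). Ahnak, a giant scaffold protein that binds the S100A10-annexin A2 complex, was 2.44-fold lower with LPS in wt cells, at 1172, 1527 and 1053 against 3099, 3218 and 2756 (limma, adjusted p = 0.000152). Capzb, an actin-capping subunit, was lower with LPS in both genotypes, 2.32-fold in MyD88ko (adjusted p = 0.0236) and 2.81-fold in wt cells (adjusted p = 0.00231, both by limma). Ppp5c, a phosphatase, was 2.6-fold higher with LPS in MyD88ko cells (limma, adjusted p = 0.0223), and Stub1, a ubiquitin ligase, was 1.93-fold higher in wt cells (limma, adjusted p = 0.0039). None of the 17 was called between genotypes.

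Anxa2, the partner that holds S100A10 at the membrane, did not pass the test beside S100a10; it was singled out after its values were seen. It had 2332, 2818 and 2116 in MyD88ko LPS, 2428, 2314 and 2054 in MyD88ko untreated, 3670, 2583 and 3212 in wt LPS and 1792, 1562 and 4071 in wt untreated libraries. The log2 difference with LPS was 0.09 ± 0.27 (SE) in MyD88ko and 0.47 ± 0.27 (SE) in wt cells, with limma's adjusted p at 0.892 and 0.25. Wt untreated replicate 3 was the highest of the 12 libraries. Of 9 annexins tested among 12, Anxa6 rose with LPS in both genotypes and Anxa1 fell in wt cells, 2.21-fold (limma, adjusted p = 0.0194). Over all genes tested, 5.98% were called with LPS in MyD88ko and 19.2% in wt cells.

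The S100A10-annexin A2 complex is known for gathering plasminogen and its activator at the cell surface, and 5 of 7 genes of that system were tested. Plat, which encodes tissue plasminogen activator, had 39, 39 and 44 in MyD88ko LPS, 92, 100 and 68 in MyD88ko untreated, 120, 113 and 96 in wt LPS and 148, 176 and 143 in wt untreated libraries. MyD88ko LPS libraries held the lowest values and overlapped with no other group. Plat was 2.08-fold lower with LPS in MyD88ko cells (limma, adjusted p = 0.0147), where 5.98% of all genes were called. It was 2.65-fold lower in MyD88ko than in wt cells with LPS (limma, adjusted p = 0.00414), where 1.49% were. Untreated, it was 1.8-fold lower in MyD88ko cells without overlap, but not called (limma, adjusted p = 0.0929). Its difference of LPS responses had an adjusted p of 0.654 by limma. No other gene of the system was called in any comparison. Among receptors named for secreted S100 proteins, 4 of 5 were tested. Alcam, a cell adhesion molecule, was called between untreated genotypes, where 1.88% of all genes were. It had 16, 13 and 7 in MyD88ko untreated against 60, 20 and 58 in wt untreated libraries, 3.41-fold lower (limma, adjusted p = 0.0499). The high values lay in wt untreated replicates 1 and 3, which held the epithelial transcripts. Without both, which left only replicate 2 in that group, Alcam was 1.69-fold lower. Ager, the gene of RAGE, was listed at 0 to 6 in MyD88ko libraries.

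Of 32 other genes with EF-hands 27 were tested; 0 rose and 4 fell with LPS in MyD88ko cells, and 5 rose and 6 fell in wt cells, beside 5.98% and 19.2% of all genes called in those comparisons. Calu, a calcium-binding protein of the secretory pathway, was 2.48-fold lower with LPS in MyD88ko cells and 1.99-fold lower in wt cells (limma, adjusted p = 0.000379 and 0.0011). Myl6, a myosin light chain, was 2.53-fold lower in MyD88ko and 1.95-fold lower in wt cells (limma, adjusted p = 0.000475 and 0.00222). In wt cells Calm2, 1 of the calmodulin genes, was 3.34-fold lower, with 1068, 1703 and 1295 with LPS against 4748, 3527 and 5269 untreated (limma, adjusted p = 0.000107). Rcn1, a reticulocalbin, was 1.6-fold lower in MyD88ko and 2.12-fold lower in wt cells (limma, adjusted p = 0.0447 and 0.000642). Of the 5 that rose in wt cells, Capn1, a calpain protease, was 2.31-fold higher (limma, adjusted p = 0.00692) and Sparc, a matrix protein, 1.98-fold higher (limma, adjusted p = 0.00867). Capn1, Sparc and the wt values of Calu and Myl6 were picked after their values were seen. None of the 27 was called between genotypes.

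Of 25 other genes that start within 500000 bases of a member, 16 were tested. In both genotypes 0 rose and 2 fell with LPS, beside 3.40% of all genes lower in MyD88ko and 9.66% lower in wt cells. Slc39a1, a zinc transporter, was 2.4-fold lower in MyD88ko and 2.34-fold lower in wt cells (adjusted p = 0.00163 and 0.000619 by limma). Rps27, a ribosomal protein gene, was 2.2-fold lower in MyD88ko and 2.44-fold lower in wt cells (adjusted p = 0.00146 and 0.000134 by limma). None was called between genotypes. Smooth muscle markers, like S100a6 and S100a10, were higher with LPS in wt cells: 4 of 5 were called higher, beside 9.55% of all genes. Their summed level was 35438 to 40690 in wt LPS against 21990 to 24748 in wt untreated libraries. In MyD88ko cells 1 of 5 was called higher, beside 2.58% of all genes, with sums of 37907 to 45263 with LPS against 33440 to 39262 untreated. Between untreated genotypes Cnn1 was called, 1.88-fold higher in MyD88ko cells (limma, adjusted p = 0.0145), where 1.88% of all genes were. About group means, S100a10 had a negative r with 4 of the 5 markers, Acta2 at only -0.026, with a median of -0.394. S100a6 was negative with 3 of 5, at a median of -0.302. Of 7743 genes with a mean of at least 50, 50% and 49.9% were negative. With the group means left in, each was negative with 1 of 5, at medians of 0.617 for S100a10 and 0.510 for S100a6. The part of smooth muscle markers in the S100 differences was not tested.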

How the data were processed

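QuantSeq libraries of mRNA 3′ ends were sequenced on an Ion Proton, per the labels' protocols. Of tools, TopHat2, Bowtie2 and DESeq are named in the submitters' processing notes, with build mm10 and no version or role. The authors deposited 4 tables, each of a pair of groups. Their expression values are scores: read counts per gene, normalized and rounded by the authors; the value per length is a score too. The p-value and adjusted p, the ratio and the log2 fold change in those tables are the authors', per the file headers. Of 166719 values given in 2 tables, 0 differed.

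The fit used limma 3.58.1 (R 4.3.3; trend, robust empirical Bayes) on log2(value + 1), with all 12 libraries and a coefficient per group. The 12385 genes tested had a value in each library and averaged 10 or more in some group. Calls are two-sided at a Benjamini-Hochberg adjusted p under 0.05 in each of 5 comparisons. Folds are on this log2(value + 1) scale, which understates the change of low genes. The scripts were tested on simulated data. Between replicates the chi-square per degree of freedom was 10.5 to 46.1, above counting error. Depth was estimated from steps among low values, up to a common factor, and covers counting error only.

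The members and gene lists were chosen with earlier results of these data known. Named genes were all 7 members, up to 4 called genes with the smallest p per list and comparison, the 2 genes most like each member, called neighbours and Myd88. Alternatives were other scalings, pseudocounts, filters and fits, a replicate block and leaving out libraries.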

Additional observations from a re-analysis of the deposited data

How the results depend on the processing

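The 12 libraries allow 3 per group, and the call of S100a6 in wt cells lies at the threshold; S100a10 stayed called under every alternative run. In wt LPS against wt untreated, 1 member in place of 2 was called with median-ratio rescaling, quantile normalization, no trend, no filter, only the groups compared, or wt untreated replicates 1 and 3 left out. For S100a6 limma's adjusted p was then 0.0528, 0.332 (log2 difference 0.36), 0.125, 0.0516, 0.0685 and 0.0503. Quantile normalization gives every library the same set of values. That largely fixes the outcome for S100a6, ranked 1 or 2 in 11 of the 12 libraries. Leaving out wt untreated replicates 1 and 3 left only replicate 2 in that group. The p-values and counts of calls from that setting rest on this single library there.

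Members called with LPS in wt cells ranged from 1 to 2 on leaving out a library and in the other 4 comparisons from 0 to 0. Genes called ranged from 337 to 791 (MyD88ko LPS), 1570 to 2729 (wt LPS), 64 to 412 (genotypes untreated), 85 to 197 (genotypes with LPS) and 0 to 44 (difference of responses). Without trend they were 425 in MyD88ko LPS, 74 and 112 between genotypes untreated and with LPS, and 0 for the difference of responses. With wt untreated replicates 1 and 3 left out they were 969 in wt LPS, 37 between untreated genotypes and 14 for the difference. The difference gave 4 with quantile normalization.

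Signs turned only where the difference was not called. S100a1's difference of responses was -0.0001 with quantile normalization and -0.21 without wt untreated 1 and 3. S100a11's was 0.0151 with median-ratio rescaling. With quantile normalization S100a16 in wt LPS was 0.0022 and S100a6 in MyD88ko LPS -0.0000. S100a6 ranked 1, 2 and 2 in both MyD88ko groups, so that last value followed from its ranks. S100a4 between untreated genotypes was 0.33 without wt untreated 1 and 3. Leaving out a library turned signs within these ranges: S100a1's difference of responses -0.17 to 0.17. S100a11's difference -0.34 to 0.32, genotypes with LPS -0.0890 to 0.48 and untreated -0.0721 to 0.59. S100a13's difference -0.51 to 0.0589, genotypes with LPS -0.0753 to 0.49 and wt LPS -0.33 to 0.16. S100a16's difference -0.43 to 0.18, MyD88ko LPS -0.47 to 0.14 and wt LPS -0.21 to 0.18. S100a4's difference -0.65 to 0.50, MyD88ko LPS -0.30 to 0.64 and wt LPS -0.30 to 0.85. S100a6 between genotypes with LPS -0.59 to 0.0585. The causes were not tested.

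Replicate numbers are shared between groups, but deviations of same-numbered libraries correlated at -0.114 to 0.171, not above 0.1 in every pair, so the numbers were not taken as pairs. In wt cells every library correlated best with its own number (0.059, 0.171 and 0.058). In MyD88ko cells LPS replicate 3 correlated at -0.050 with untreated replicate 3 and at 0.111 with untreated replicate 2. Across genotypes, MyD88ko LPS replicate 1 correlated at 0.162 with wt LPS replicate 3. The labels give no shared source, and none was tested. With a replicate block, S100a6 in wt LPS had an adjusted p of 0.029 by limma and S100a10 0.00476; genes called were 763, 2389, 278, 206 and 2. With a replicate block within genotype, chosen after seeing the data, S100a6 had 0.00227, S100a10 0.00366, the SE of S100a6 was 0.19 in place of 0.32 and that of S100a4 0.19 in place of 0.71, and 4 genes were called for the difference of responses. In that fit this difference was -0.63 ± 0.27 (SE) for S100a6 and -0.60 ± 0.27 (SE) for S100a10. Limma gave them an unadjusted p of 0.0303 and 0.0399 and an adjusted p of 0.445 and 0.476, so neither was called.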
